A study of Mus musculus with 4 samples.

Results

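Olfactory ensheathing cells (OECs) were picked out of single-cell libraries of whole mouse brain by the neuropeptide gene *Npy* and the secreted Wnt inhibitor gene *Frzb*. A barcode was taken as an OEC when it held at least 1000 unique molecular identifiers (UMIs, each a tagged RNA molecule), at most 15.8% of them mitochondrial, at least 1 UMI of *Npy* and of *Frzb*, at least 6 of both together, and at most 3 of the neuronal genes *Snap25* and *Syt1*. This rule found 78 barcodes among the 30941 within the UMI and mitochondrial limits (0.252%) and the 36876 deposited. The brains came from 4 C57BL/6J mice, male by the study's methods, with 1 mouse for each age and diet. Adult mice were 3 to 4 months old and aged mice 23 to 24 months old when the experimental diets began, and all 4 had been moved to the purified AIN-93M diet before that. For the 8 weeks of the experiment the AIN-93M diet was modified to hold 1% cellulose, with 0% inulin (low fiber) or 5% inulin (high fiber). Dissociated cells of every mouse were passed over myelin removal and dead cell removal beads. Libraries were made with the 10x Chromium 3′ chemistry, and the values are raw UMI counts per gene and barcode.

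OECs are glia of the olfactory nerve and of the outer, nerve layer of the olfactory bulb. They wrap bundles of the unmyelinated axons that sensory neurons of the nose send into the brain throughout life, and they are known for letting new axons grow in. They arise from the neural crest and share *Sox10* and other glial genes with Schwann cells. They also make growth factors, adhesion molecules and matrix around the axons.

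The files held 9246 barcodes and 115814810 UMIs for the adult mouse fed 0% inulin, 10256 and 111648775 for the adult fed 5%, 7881 and 88248117 for the aged fed 0%, and 9493 and 108131200 for the aged fed 5%. OECs numbered 44 in the adult fed 0% inulin, 21 in the adult fed 5%, 13 in the aged fed 0% and 0 in the aged fed 5%. No OEC barcode sequence occurred in a second library, although 192 sequences occurred in more than 1 library. The median OEC held 9409 UMIs (range 1313 to 35015) and 3220.5 genes, beside a median of 7267 UMIs over all barcodes within the limits. Its median mitochondrial share was 8.33%, against 5.04% over all barcodes within the limits. Scrublet, a doublet caller, marked 2 OECs as doublets, both in the adult fed 0% inulin, and they were kept. A total of 18 OECs held more than 20 UMIs of a list of 15 microglia and endothelial markers (5 of 44, 7 of 21 and 6 of 13 in the 3 mice). Results that rest on these droplets are given with and without them. *Cldn5* is on that list and was itself spread over many OECs, unevenly between mice (below). A droplet above the limit thus need not hold RNA of another cell type.

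*Npy* and *Frzb* chose the cells, so their levels are a description. *Npy*, which encodes neuropeptide Y, stood at 8870, 7541 and 6438 CPM (UMIs of the gene per 1000000 UMIs) in the OECs of the adult fed 0%, the adult fed 5% and the aged fed 0%. A single OEC held between 2 and 247 *Npy* UMIs, with a median of 64.5. *Frzb* stood at 857, 902 and 811 CPM in the same order, with 1 to 27 UMIs in a cell. OECs held 74.4%, 62.5% and 50% of all *Npy* UMIs in these 3 libraries, although they were under 1% of the barcodes. Across the 77 OECs with 2000 or more UMIs, *Npy* and *Frzb* counts thinned to 2000 UMIs were weakly related (r = 0.224, rho = 0.266), and *Npy* and *Apod* more closely (r = 0.607, rho = 0.655). All cells in these correlations share 3 libraries, so they are descriptions.

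At the edge of the rule, 1 OEC had between 6 and 8 UMIs of the pair, and it had UMIs of *Foxd3* and *Sox10*. Of 2 barcodes with 4 or 5 UMIs of the pair, 1 had both of these genes. A further 103 barcodes had 6 or more *Npy* UMIs but no *Frzb*. They were spread over the mice as 28, 23, 26 and 26, none had a UMI of *Foxd3*, and 102 had *Aqp4*, the water channel of astrocytes and ependymal cells.

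**Figure D1:**
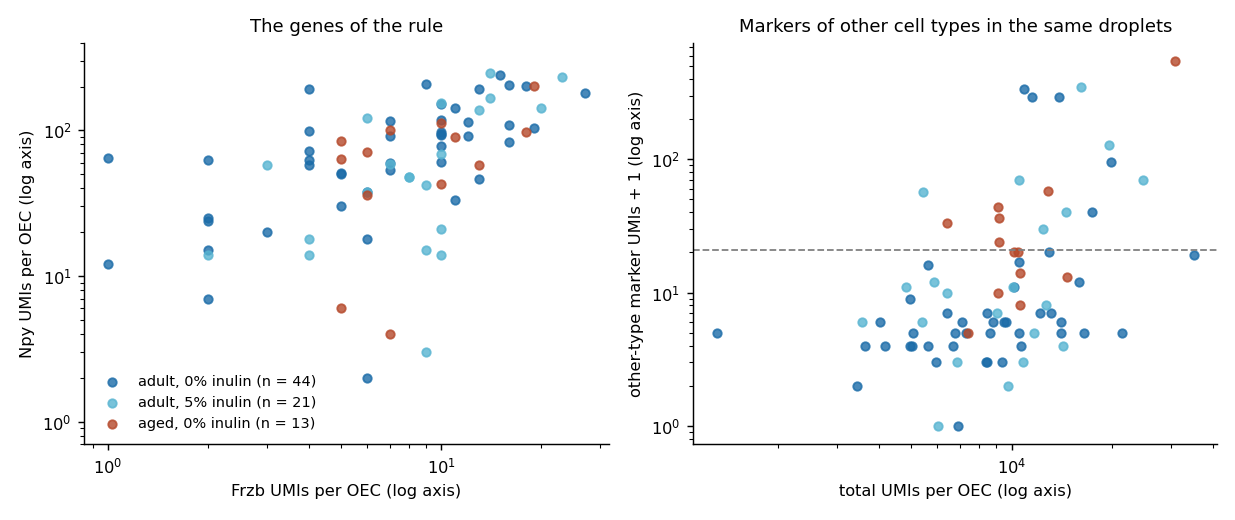
Left, Npy UMIs against Frzb UMIs (both log axes) in each of the 78 OECs, coloured by mouse. Right, UMIs of the microglia and endothelial marker lists plus 1 against total UMIs (both log axes) in the same OECs, with the dashed line at more than 20 marker UMIs. Most OECs lie below the line, and 18 lie above it.

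The label was checked with genes the rule did not use. *Sox10*, the neural crest and glial transcription factor, stood at 277, 263 and 326 CPM in the 3 mice with OECs. It was seen in 70 of 78 OECs, and after thinning to 2000 UMIs in 39.0% of OECs, 0.0512% of astrocytes and 0.195% of fibroblasts. *Foxd3*, a neural crest transcription factor kept by OECs, stood at 243, 413 and 233 CPM and was seen in 67 OECs. After thinning its share was 45.5% in OECs and 0% in both other classes. *Fabp7* (a brain fatty acid carrier) and *Apod* (a lipid carrier) were seen in all 78 cells. A total of 3 OECs had neither *Sox10* nor *Foxd3*.

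Not every gene reported for OECs was there. *Ngfr*, the low-affinity neurotrophin receptor used to purify cultured OECs, was seen in 2 OECs, with 4.58, 0 and 0 CPM in the 3 mice. After thinning it was seen in 0% of OECs, 0.256% of astrocytes and 0.391% of fibroblasts. *Gfap*, the astrocyte filament that some OECs carry, was seen in 11 OECs, at 89.3, 31.7 and 19.95 CPM. Genes of mature oligodendrocytes were sparse: *Mobp*, *Ermn*, *Opalin* and *Hapln2* were at 0 and *Mog* was seen in 8 cells. The fibroblast gene *Dcn* was seen in 1 OEC and the sensory neuron gene *Omp* in 1. *Ngfr* was thus not detectable above background at this depth. Of 14 genes on the OEC marker list that were tested, 11 were called higher and 2 lower than in astrocytes, and 10 higher and 3 lower than in fibroblasts, with edgeR. The lower ones were *Mia* (log2 fold change -2.53 against astrocytes and -0.83 against fibroblasts), *Sostdc1* (-3.28 and -4.65) and, against fibroblasts, *Islr* (-3.43). The background shares of calls are given with the class comparison.

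OECs were not evenly spread over the mice. They made up 0.559% of the barcodes within the limits in the adult fed 0% inulin (44 of 7875, exact 95% binomial interval 0.406 to 0.749%). The share was 0.245% in the adult fed 5% (21 of 8566, 0.152 to 0.375%) and 0.196% in the aged fed 0% (13 of 6633, 0.104 to 0.335%). The aged mouse fed 5% had 0 of 7867 (upper bound of the exact interval 0.0469%), and a limit of 3 counts of the total would be 0.0381%. The intervals cover counting error only. Aged mice had 0.0980% ± 0.139 (SD, n = 2) and adults 0.402% ± 0.222 (SD, n = 2), a difference of -0.304 percentage points (exact two-sided permutation p = 0.333, the smallest that 2 mice against 2 can give). Mice fed 5% inulin had 0.123% ± 0.173 (SD, n = 2) and those fed 0% had 0.377% ± 0.256 (SD, n = 2), with an exact two-sided permutation p of 0.667. The aged mouse had the lower share within each diet, and the mouse fed 5% within each age (exact two-sided paired permutation p = 0.5 for both, the smallest that 2 pairs can give). With 1 mouse in each age and diet, differences between single mice cannot be told apart from those of age or diet.

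Of genes that the rule did not use, 4 followed the same order of mice over whole libraries and *Sox10* did not. *Foxd3* had 135 UMIs over all barcodes of the adult fed 0%, 128 in the adult fed 5%, 50 in the aged fed 0% and 0 in the aged fed 5%. The long non-coding RNA gene *Gm12688* had 47, 41, 17 and 0, and *Gdpd4*, a phosphodiesterase-family gene, had 60, 53, 22 and 0. *Il13ra2*, a decoy receptor for interleukin 13, had 144, 67, 15 and 8. *Sox10*, which oligodendrocyte lineage cells also use, had 150, 85, 95 and 55. The aged mouse fed 5% thus stood at 0 in 3 of these 5 genes, at a sequencing depth of 108131200 UMIs.

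Other olfactory genes did not share one order. *Omp*, the marker of mature olfactory sensory neurons, had 22, 74, 187 and 0 UMIs in the same order of mice, so it was also at 0 in the aged mouse fed 5%. The summed list of 9 olfactory sensory neuron markers that holds *Omp* did not follow it, at 38.2, 34.1, 55.7 and 55.8 CPM in barcodes other than OECs. This list summed to 159 CPM in the astrocyte class described below, so its sum does not measure sensory neurons alone. *Gng13*, a G protein subunit on that list, had 379, 730, 1683 and 321 UMIs over whole libraries. Summed markers of olfactory bulb interneurons in barcodes other than OECs stood at 138, 140, 127 and 112 CPM and those of neuroblasts at 233, 244, 181 and 186. The part of how much olfactory tissue entered each suspension in the OEC counts was not tested. The median OEC had 8703.5, 10063 and 10130 UMIs in the 3 mice with OECs.

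**Figure D2:**
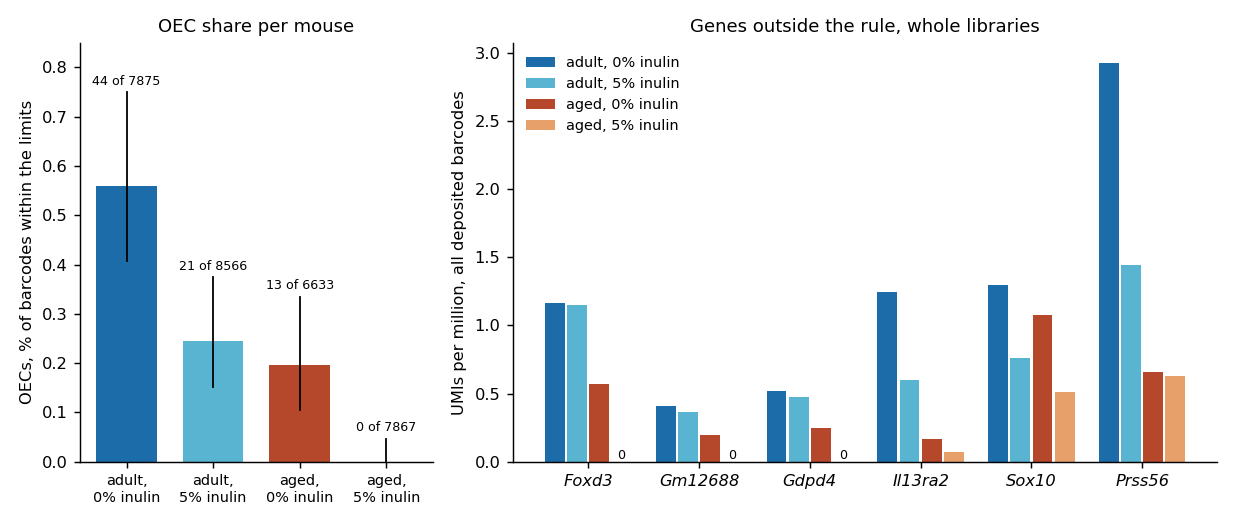
Left, OECs as a percentage of the barcodes within the limits in each mouse, with exact 95% binomial intervals and the counts above. Right, CPM over all deposited barcodes of each mouse for 6 genes the rule did not use. The adult mouse fed 0% inulin has the highest OEC share, and the aged mouse fed 5% stands at 0 for OECs, Foxd3, Gm12688 and Gdpd4.

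To ask which genes set OECs apart, UMIs were summed per mouse over OECs, over 5987 astrocytes and over 518 fibroblasts, and edgeR compared the sums within mice. Astrocytes were chosen by *Aqp4* and *Slc1a2* and fibroblasts by *Dcn* and *Col1a2*, by the same kind of rule. The astrocyte class also held ependymal markers (3318 CPM summed over 5 genes), so it is not pure. Calls needed an adjusted p below 0.05 together with a fold above 1.5. Of 14756 genes tested, 1414 were called higher in OECs than in astrocytes (9.58%) and 2170 lower (14.7%). Against fibroblasts 1728 were higher (11.7%) and 2163 lower (14.7%). In both comparisons 833 genes were higher (5.65%) and 524 lower (3.55%). Dispersion was estimated from few mice: 3 with OECs and 4 with each other class. In simulated sums with a fixed dispersion, 61.5% of genes changed 4-fold but 5.5% of those changed 2-fold were recovered against astrocytes.

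The genes with the largest fitted folds among those at 100 CPM or more in OECs included *Gm12688*, *Foxd3*, *Gdpd4* and *Sox10*, and those against a class with 0 UMIs are given as bounds. *Foxd3* averaged 296 CPM ± 101 (SD, n = 3 mice) in OECs, against 3 UMIs in all astrocytes and 0 in all fibroblasts. That was 6713 times the astrocyte level (95% counting interval 2297 to 32554) and at least 1282-fold higher than in fibroblasts. *Sox10* averaged 289 CPM ± 33.0 (SD, n = 3), 1034 times the astrocyte level. *Gm12688* averaged 100.1 CPM ± 13.2 (SD, n = 3) and had 0 UMIs in astrocytes and fibroblasts, which is at least 2269-fold and 433-fold higher (against the limit of 3 UMIs over the class). Genes such as *Gm12688*, *Foxd3*, *Gdpd4* and *Sox10*, nearly absent from both other classes, passed the filter on low counts through the OECs alone. Their edgeR calls and their place on this list are thus a description.

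*Foxd3* and *Gm12688* are neighbours on chromosome 4. In GRCm38 (GENCODE vM21) *Foxd3* lies on the plus strand at chr4:99656299-99658622 and *Gm12688* on the minus strand at chr4:99653607-99654983, so the pair points away from a shared stretch of 1315 bases. The 250 bases before the *Foxd3* start (RefSeq, GRCm38.p6, chr4:99656049-99656298, plus strand) lie in that stretch and are shown because both flanking genes were seen in OECs of all 3 mice and were nearly absent in astrocytes and fibroblasts. Capitals mark CACGTG, an E-box that reads the same on both strands, 217 bases before the start.
Foxd3: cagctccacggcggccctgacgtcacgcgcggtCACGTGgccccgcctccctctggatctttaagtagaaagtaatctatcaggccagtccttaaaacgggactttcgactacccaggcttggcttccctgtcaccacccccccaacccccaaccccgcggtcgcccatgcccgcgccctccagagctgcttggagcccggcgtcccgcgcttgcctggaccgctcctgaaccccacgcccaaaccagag
This hexamer was present in 1978 of 32851 RefSeq promoter windows of this length (6.02%). It was in 1 of the 16 named OEC genes with a window, which is *Foxd3* itself, so the match is a description of this promoter alone.

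The 25 genes with the largest smaller fold of both comparisons, at 100 CPM or more in OECs, included *Fabp7*, *Erbb3*, *Edil3*, *Matn4*, *Prss56*, *Clca3a1*, *Gdpd4*, *Qpct*, *Grik3* and *Fxyd6*. *Fabp7* stood at 6082, 11581 and 10096 CPM in the 3 mice, against 103 ± 13.6 (SD, n = 4) in astrocytes and 2.14 ± 1.37 (SD, n = 4) in fibroblasts. It exceeded astrocytes by 6.52 ± 0.30 (SE) on the log2 scale. *Erbb3*, the neuregulin receptor of Schwann cell precursors, stood at 186, 258 and 200 CPM and exceeded astrocytes by 6.82 ± 0.40 (SE). All OEC mice were above all astrocyte and fibroblast mice for both genes.

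*Edil3*, an integrin-binding matrix protein, stood at 415, 626 and 579 CPM, 10.20 ± 0.41 (SE, log2) above astrocytes, and was seen in 75 of 78 OECs. *Fxyd6*, a regulator of the sodium pump, stood at 458, 594 and 738 CPM, and *Matn4*, a matrilin of the matrix, at 460, 490 and 319 CPM. The glutaminyl cyclase *Qpct*, which modifies the ends of peptides, stood at 309, 299 and 120 CPM. *Grik3*, a kainate receptor subunit, stood at 77.9, 168 and 126 CPM. *Clca3a1* stood at 160, 603 and 758 CPM and *Il13ra2* at 236, 200 and 26.6 CPM, so both varied between mice more than *Sox10* did. Other named genes higher in OECs were *Gm29521*, *2700046A07Rik*, *Bricd5*, *Ltbp2* (a TGF-beta binding matrix protein), *Anks1b*, *B3gat2*, *Serpina3n* (a protease inhibitor), *Lurap1l* and *Fndc1*.

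The rule also named *Mmp12*, a macrophage elastase, but all of its UMIs came from 1 OEC of the aged mouse fed 0% inulin. That droplet is among the 18 with microglia and endothelial markers. DESeq2 did not call *Mmp12* against astrocytes (adjusted p = 0.144).

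**Figure D3:**
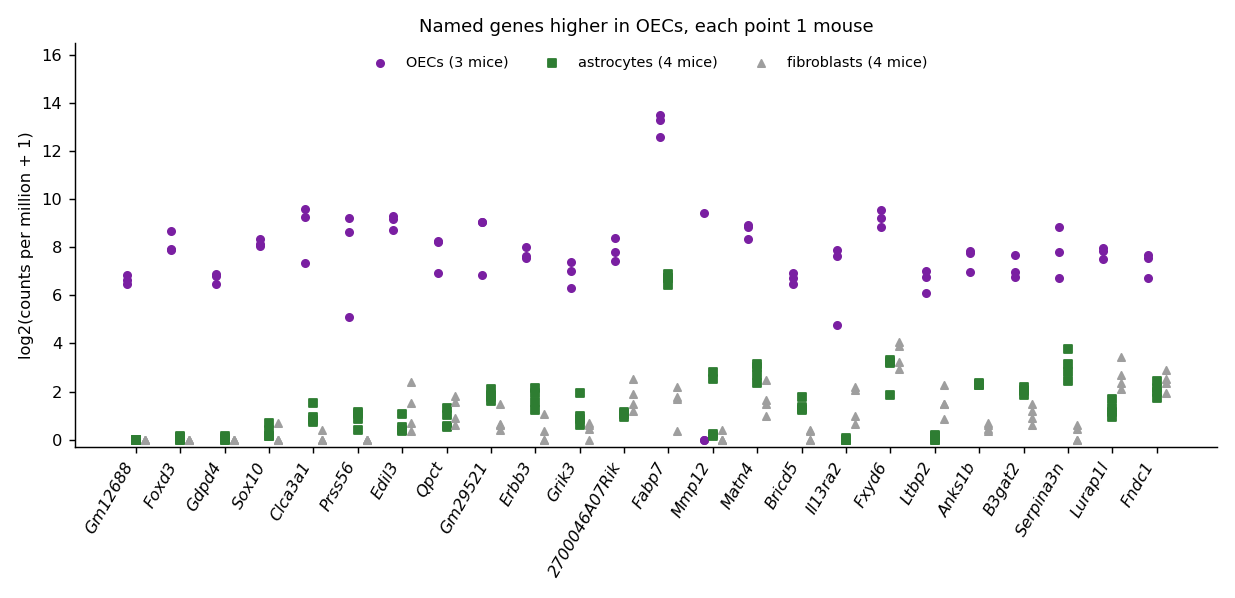
Levels of the named genes higher in OECs, as log2(CPM + 1), with each point 1 mouse: OECs of 3 mice, astrocytes of 4 and fibroblasts of 4. In all genes shown but Mmp12, every OEC mouse lies above every astrocyte and fibroblast mouse.

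The 10 named genes lower in OECs than in both classes were *Prelp*, *Igfbp2*, *Folr1*, *Calml4*, *Tm4sf1*, *Gm14964*, *Lbp*, *Spint2*, *Aebp1* and *Pcdh7*. *Prelp*, a proteoglycan of basement membranes, stood at 6.87, 0 and 0 CPM in OECs, against 180 in astrocytes and 139 in fibroblasts. *Igfbp2*, an insulin-like growth factor binding protein, stood at 25.2, 18.1 and 13.3 CPM and was lower than astrocytes by a log2 fold change of -4.24 ± 0.25 (SE). *Folr1* and *Calml4* are also genes of the choroid plexus, whose abundant transcript *Ttr* was seen in all 78 OECs, in 100% of astrocytes and in 100% of fibroblasts. Levels differed: summed choroid plexus genes stood at 3804 CPM in OECs, 19481 in astrocytes and 50792 in fibroblasts. *Ttr* was lower in OECs than in astrocytes by a log2 fold change of -2.16 ± 0.32 (SE). The part of choroid plexus RNA in these lower calls was not tested. With barcodes above 22005 UMIs left out, *Folr1* was no longer lower than in fibroblasts (log2 fold change 0.18).

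Genes of the Wnt pathway were counted from lists, since *Frzb* itself belongs to it. Wnt proteins signal through Frizzled receptors and beta-catenin, and secreted antagonists bind them outside the cell. Of 7 genes on a list of Wnt antagonists tested, 1 was higher and 3 were lower in OECs than in astrocytes (2 and 4 against fibroblasts). *Apcdd1*, a membrane-bound Wnt inhibitor, was the one higher in both, so no secreted antagonist tested was. It stood at 470, 449 and 239 CPM, 4.33 ± 0.27 (SE, log2) above astrocytes. Of 10 Wnt ligands, 2 were higher and 5 lower than in astrocytes, with 1 and 5 against fibroblasts. *Wnt6* was the ligand higher in both, at 350, 349 and 160 CPM in OECs against 4.42 ± 1.56 (SD, n = 4) in astrocytes. Of 14 receptors, 2 were higher and 5 lower than in astrocytes, and 0 and 5 than in fibroblasts. Over all genes tested, 9.58% were higher and 14.7% lower than in astrocytes, and 11.7% and 14.7% than in fibroblasts.

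Of 13 genes of Wnt transcription and its targets, 6 were higher and 0 lower than in astrocytes, and 5 were higher and 1 lower than in fibroblasts. Beside these stand 9.58% and 14.7% of all genes against astrocytes, and 11.7% and 14.7% against fibroblasts. Their median log2 fold changes were 1.96 and 0.87, beside medians of -0.19 and -0.17 over all genes tested. *Lef1*, a transcription factor of the pathway, stood at 75.6, 118 and 53.2 CPM, against 23.0 ± 5.06 (SD, n = 4) in astrocytes. *Nkd1*, a feedback inhibitor, stood at 117, 63.5 and 33.3 CPM, against 21.2 ± 0.704 (SD, n = 4). *Lgr5* was called higher in both comparisons from 5 OECs with a UMI, at 4.58, 13.6 and 6.65 CPM.

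Of 19 growth factors and receptors tested, 3 were higher and 4 lower than in astrocytes, and 6 and 2 than in fibroblasts. The shares over all genes were 9.58% higher and 14.7% lower than in astrocytes, and 11.7% and 14.7% than in fibroblasts. *Igf1*, an insulin-like growth factor, stood at 346, 417 and 359 CPM, 8.19 ± 0.27 (SE, log2) above astrocytes and 4.77 ± 0.25 above fibroblasts. *Gfra1*, the GDNF co-receptor, stood at 101, 77.1 and 79.8 CPM, 2.51 ± 0.33 (SE, log2) above astrocytes. The neurotrophic ligands *Bdnf*, *Gdnf*, *Nrtn*, *Cntf* and *Lif* had 0 UMIs in the 807429 UMIs of OECs. The receptors *Npy2r*, *Npy4r* and *Npy5r* of neuropeptide Y were also at 0, and *Npy1r* was seen in 2 OECs.

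Adhesion and guidance genes were counted beside the same shares over all genes. These were 9.58% higher and 14.7% lower than in astrocytes, and 11.7% and 14.7% than in fibroblasts. Of 19 adhesion genes, 7 were higher and 7 lower than in astrocytes, and 9 and 3 than in fibroblasts. *Ncam1*, the neural cell adhesion molecule, stood at 1771, 2158 and 2268 CPM, against 356 ± 31.9 (SD, n = 4) in astrocytes and 6.49 ± 4.65 in fibroblasts. *Chl1*, an L1-family adhesion molecule, stood at 142, 150 and 93.1 CPM, 2.21 ± 0.20 (SE, log2) above astrocytes, while *Cadm1* was lower by a log2 fold change of -3.65 ± 0.38 (SE). Of 27 axon guidance genes, 6 were higher and 9 lower than in astrocytes, and 3 were higher and 12 lower than in fibroblasts. The 3 higher in both were *Sema6a*, *Efnb2* and *Efna5*, which encode a membrane semaphorin and a pair of ephrins. *Sema3d*, a secreted semaphorin, stood at 105, 99.8 and 99.8 CPM, above astrocytes by 6.99 ± 0.28 (SE, log2) but not called against fibroblasts (adjusted p = 0.28).

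Matrix and lipid genes were counted beside shares over all genes of 9.58% higher and 14.7% lower than in astrocytes. Against fibroblasts these shares were 11.7% and 14.7%. Of 32 matrix genes, 7 were higher and 9 lower than in astrocytes, and 11 were higher and 11 lower than in fibroblasts. *Lama4*, a laminin chain, stood at 91.6, 86.2 and 73.2 CPM, 4.71 ± 0.31 (SE, log2) above astrocytes. *Sparc*, a collagen-binding matrix protein, stood at 1936, 1836 and 1496 CPM and was higher than in both classes. *Vtn*, which encodes vitronectin and is also a marker of pericytes, stood at a mean of 2122 CPM ± 576 (SD, n = 3) and was seen in 74 of 78 OECs, so it was not limited to the droplets with other markers. Of 21 lipid genes, 8 were higher and 2 lower than in astrocytes, and 17 were higher and 2 lower than in fibroblasts. *Apoe* stood at 25702, 44302 and 57329 CPM, and *Scd1*, a fatty acid desaturase, at 554, 712 and 459 CPM, 3.62 ± 0.19 (SE, log2) above astrocytes.

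Of 24 neural crest and glial transcription factors, 6 were higher and 8 lower in OECs than in astrocytes, and 8 were higher and 7 lower than in fibroblasts. For this and the next lists, the shares over all genes were 9.58% higher and 14.7% lower than in astrocytes. They were 11.7% and 14.7% than in fibroblasts. *Sox2* stood at 27.5, 13.6 and 19.95 CPM and *Sox9* at 41.2, 13.6 and 26.6 CPM, against 415 ± 10.7 and 615 ± 36.4 (SD, n = 4) in astrocytes. *Sox2* was higher than in fibroblasts (log2 fold change 1.81 ± 0.39 (SE), adjusted p = 0.0048). *Id3*, an inhibitor of bHLH transcription factors, was higher than in astrocytes (0.76 ± 0.18 (SE, log2)) and lower than in fibroblasts (-0.77 ± 0.18). *Hey2*, a Notch target, stood at 296, 317 and 379 CPM, 3.61 ± 0.19 (SE, log2) above astrocytes. All 7 myelin genes tested were higher than in astrocytes. Against fibroblasts 5 were higher, *Mal* was lower (log2 fold change -0.76, adjusted p = 0.018) and *Pmp22* was not called (-0.28, adjusted p = 0.26). *Mbp* reached only 32.1, 13.6 and 26.6 CPM. Of 17 genes of innate immunity, 3 were called against astrocytes, all lower in OECs, namely *Cxcl10*, *Il33* and *Vcam1*, beside 14.7% of all genes. Against fibroblasts 9 of them were lower, *Il33* and *Vcam1* included, and 1 was higher, *Tlr2*.

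Within OECs, some genes varied widely from cell to cell. After thinning to 2000 UMIs, the median ratio of variance to mean was 1.03 over 3258 genes seen in at least 10% of cells, where a ratio of 1 is that of counting error alone. Among the 15 genes with the largest ratio were *Malat1*, *Mgp*, *Apoe*, *mt-Rnr2*, *Cst3*, *Tmsb4x*, *Fabp7*, *Ptn*, *C1qa*, *Apod*, *Mt3*, *Ctsd*, *Cldn5* and *C1qb*. *C1qa*, *C1qb*, *Ctsd* and the endothelial *Cldn5* are genes of other cell types or shared with them. *Cldn5* was not held by a few droplets: after thinning it was seen in 11.6%, 57.1% and 92.3% of OECs of the 3 mice, with 14.4% of its UMIs in the richest cell. It was called higher in OECs than in astrocytes (log2 fold change 2.21 ± 0.52 (SE)), beside 9.58% of all genes. *Mgp*, a calcification inhibitor of vessels and fibroblasts, drew 66.0% of its thinned UMIs from a single OEC. *Fabp7*, *Ptn* and *Apod*, in contrast, were spread over the cells, with at most 4.22% of the thinned UMIs in 1 cell.

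*Fabp7* ranged from 0.286 to 213 UMIs per 10000 in single OECs of the adult fed 0% inulin (median 54.9), from 9.99 to 212 in the adult fed 5% (94.2) and from 18.7 to 195 in the aged fed 0% (114). *Apod* had medians of 144, 113 and 54.5 per 10000, and *Ptn*, the growth factor pleiotrophin, 257, 236 and 220. The ranges of the 3 mice overlapped for all of them. *Prss56*, a serine protease gene, had UMIs in 31 of 44, 13 of 21 and 1 of 13 OECs, with a highest cell of 30.2, 23.3 and 3.42 per 10000. *Clca3a1* had a median of 0, 1.62 and 4.04 per 10000, and its thinned counts were weakly and inversely related to those of *Prss56* (r = -0.203, rho = -0.222, 77 cells), as a description.

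**Figure D4:**
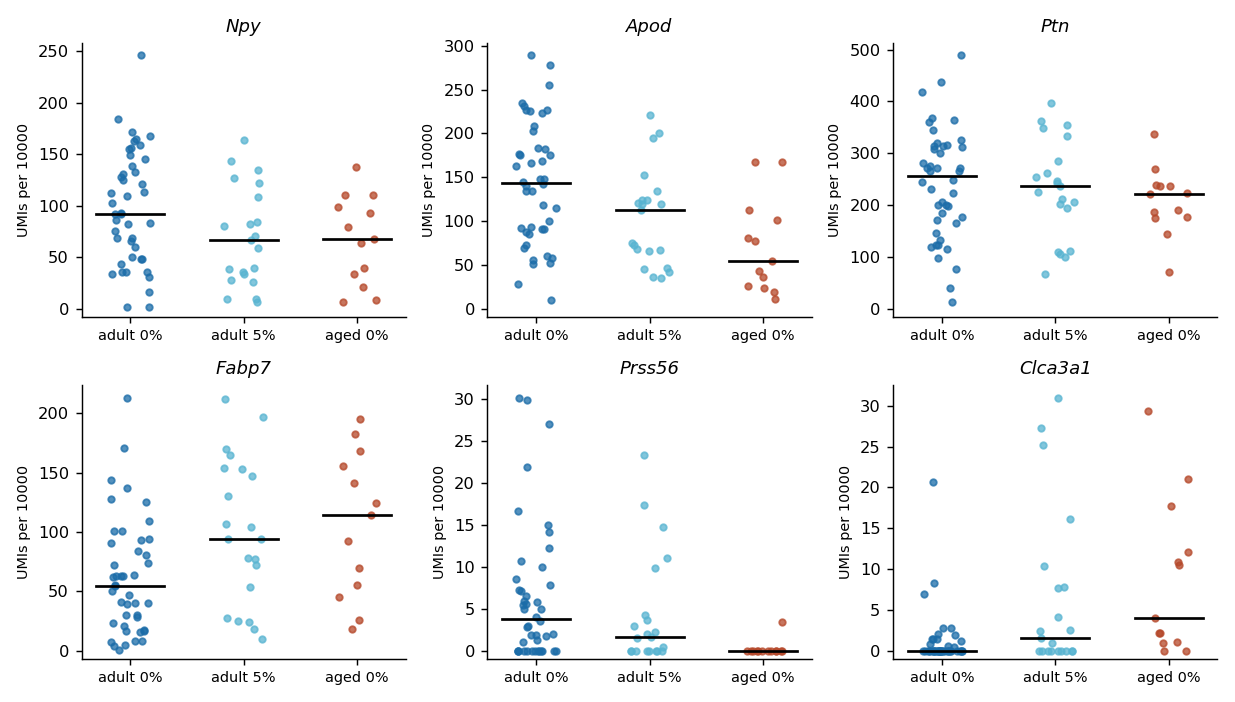
UMIs per 10000 of 6 genes in each OEC of the 3 mice with OECs; the black line is the median of the mouse. Npy, Apod, Ptn and Fabp7 overlap between mice, and Prss56 has a UMI in only 1 of the 13 OECs of the aged mouse.

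For age, the 13 OECs of the aged mouse fed 0% inulin were set against the adult mice, since the aged mouse fed 5% had none. The lone aged mouse is assumed to vary like the adults, so a call separates 1 aged mouse from 2 adults, and age cannot be told apart from other differences of that mouse. Of 4805 genes tested, 110 were called (2.29%), of which 57 were higher (1.19%) and 53 lower (1.1%) in the aged OECs by edgeR. Of the 57, 39 drew more than 50% of their aged UMIs from a single droplet, and so did 13 of the 53 on the adult side. DESeq2 called 13 higher and 3 lower. With OECs above 22005 UMIs left out, 3 cells in all, the balance turned to 30 higher and 67 lower, and 6 of the 110 genes, all higher with these cells, were called lower. These were *C1qa*, *C1qb*, *Ctss*, *Fcer1g*, *Tyrobp* and *Trem2*, all known from microglia and other myeloid cells.

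The 15 named genes higher in the aged OECs were *Mmp12*, *Spp1*, *Lgals3*, *Cd74*, *Ccl5*, *Lpl*, *H2-Eb1*, *H2-Aa*, *Cd52*, *Lyz2*, *Capg*, *H2-Ab1*, *Gm26870*, *Crlf2* and *2900052N01Rik*. Genes such as *Mmp12* (0, 0 and 103 UMIs), *Spp1* (2, 0 and 220) and *Lgals3* (1, 0 and 61) passed the filter on low counts through the aged mouse alone, so their place on this list is a description. *Spp1*, the secreted phosphoprotein osteopontin, stood at 4.58, 0 and 1463 CPM in the adult fed 0%, the adult fed 5% and the aged fed 0%, and 100% of its aged UMIs came from 1 droplet. *Cd74*, the invariant chain of MHC class II, stood at 6.87, 4.53 and 825 CPM, with 99.2% from 1 droplet. Summed microglia markers stood at 2575, 1193 and 3532 CPM in the OECs of the 3 mice, with *C1qb* the most abundant and all 9 above 0. Of these 9, 3 were called higher in the aged OECs (*C1qa*, *C1qb* and *Ctss*, each called lower under the limit of 22005 UMIs) and 2 lower (*Tmem119* and *P2ry12*, log2 fold changes -4.17 and -3.80). *Tmem119* was not called without the 18 droplets, and *P2ry12* could not be tested there. Both genes count toward the marker UMIs that define these droplets. Leaving the droplets out therefore lowers both genes by construction and decides nothing about their calls. Without the 18 droplets, 13 genes were called higher and 22 lower, and 0 of the 15 named genes could be tested.

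Of the 110 genes called, 71 could be tested without the 18 droplets (27 higher, 44 lower). Of these, 25 were also called there, 6 of them higher and 19 lower. These 25 genes are named after their values were seen. This setting left out 6 of the 13 aged OECs, and *Cldn5*, spread over many OECs, counts toward its limit. Being called there thus does not settle what a call rests on. The 6 higher were *Ccnd1* (cyclin D1), *Mt2* (a metallothionein), *Acsbg1* (a fatty acid activating enzyme), *Serpina3n*, *Agt* (angiotensinogen) and *Wls* (the Wnt secretion factor). *Acsbg1* stood at 101, 99.8 and 326 CPM and at 77.1, 8.53 and 453 CPM without the droplets. *Ccnd1* stood at 36.7, 77.1 and 273 CPM, with a log2 fold change of 2.44 ± 0.40 (SE). *Serpina3n* stood at 103, 222 and 459 CPM, so the aged mouse was above both adults.

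Lower in the aged OECs were *Prss56*, *Rspo3*, *Esyt3*, *Gjb1* and others. Among the 15 with the largest fold were *Rspo3*, *Esyt3*, *Hspb1*, *Gjb1*, *Dpysl3*, *Fbln1*, *Plppr5*, *Dzip3*, *Tagln*, *Tmem119*, *Kcnc1*, *Hspa1b*, *Cyp1b1* and *Prss56*. *Prss56* stood at 598, 399 and 33.3 CPM with a log2 fold change of -3.83 ± 0.57 (SE). Without the droplets it stood at 642, 700 and 68.6 CPM. *Rspo3*, a secreted enhancer of Wnt signalling, stood at 208 and 63.5 CPM in the adults and had 0 UMIs in the aged OECs, at least 6.81-fold lower. *Gjb1*, the gap junction protein connexin 32, stood at 82.5 and 86.2 CPM and had 0 UMIs, at least 4.23-fold lower, but it was not called without the droplets (adjusted p = 0.13). Genes with 0 aged UMIs, such as *Rspo3* and *Gjb1*, passed the filter on low counts through the adult mice alone. Their place on this list is thus a description. *Tagln*, a smooth muscle gene, drew 97.7% of its adult UMIs from 1 droplet.

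Gene lists were counted beside all genes tested. Of 11 immediate early genes tested, 0 were higher and 3 lower (*Jun*, *Jund* and *Klf2*), and of 12 heat shock genes 3 were lower (*Hspa1a*, *Hspa1b* and *Hspb1*), beside 1.1% of all genes. Of 19 lysosomal genes, 5 were higher (*Ctsb*, *Ctsd*, *Ctsl*, *Ctsz* and *Ctsa*), beside 1.19%, and between 70.8% and 86.1% of their aged UMIs came from 1 droplet. Without the 18 droplets, the 4 of these that could be tested were not called, and *Ctsd* stood at 298, 256 and 261 CPM. Of 11 antigen presentation genes, 6 were higher, but between 53.5% and 100% of their aged UMIs came from 1 droplet. Without the 18 droplets, *Cd74*, *H2-Aa*, *H2-Ab1* and *H2-Eb1* could not be tested, and *B2m* and *H2-D1* were not called. Of 14 interferon response genes, 0 were called in either direction, and of 14 adhesion genes also 0. Of the 12 OEC markers tested, 1 was called, *Prss56*. *Jun* was also called without the droplets, at 286, 85.3 and 0 CPM.

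**Figure D5:**
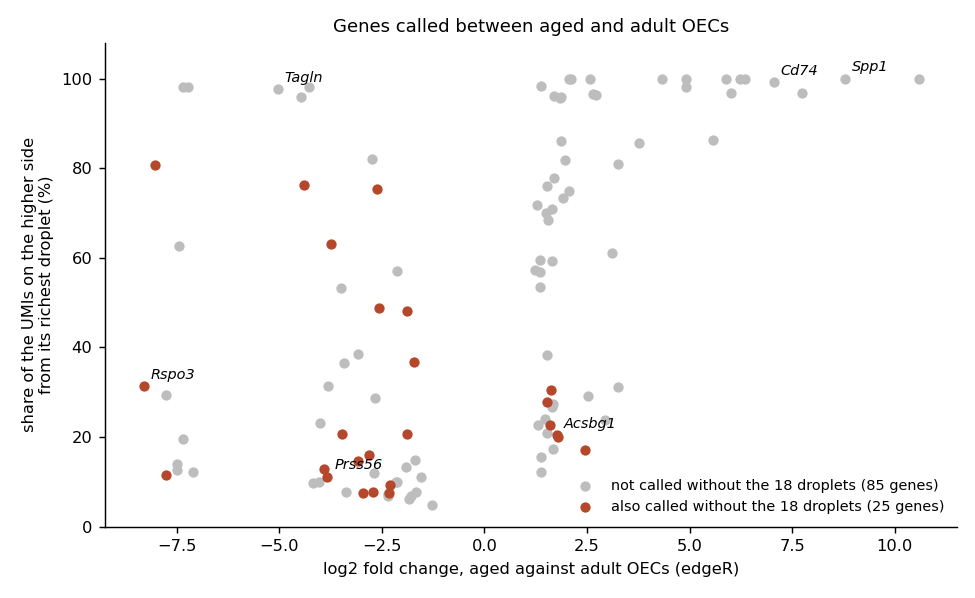
The 110 genes called between aged and adult OECs, by log2 fold change (edgeR) and by the share of the UMIs on their higher side that came from its richest droplet. Genes also called without the 18 droplets above the limit of microglia and endothelial markers are in red (25 genes). Most genes with large positive changes lie near 100%.

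For diet, the OECs of the adult fed 5% inulin were set against those of both mice fed 0%. The lone mouse fed 5% is assumed to vary like the others, and the mice fed 0% differ in age, so age is part of the spread that this test uses. Of 4805 genes, 37 were called (0.77%), 6 of them higher (0.125%) and 31 lower (0.645%) with 5% inulin. The 6 higher were *Cxcl12*, *Flt1*, *Ly6c1*, *Slco1c1*, *Pltp* and *Itih5*, of which *Flt1* and *Ly6c1* are endothelial. *Flt1*, a VEGF receptor, stood at 22.9, 227 and 33.3 CPM in the adult fed 0%, the adult fed 5% and the aged fed 0%, with 76% of its UMIs in the adult fed 5% from 1 droplet. Without the 18 droplets *Flt1* stood at 24.8, 8.53 and 13.7 CPM. *Flt1* counts toward the 20 marker UMIs that define these droplets, so leaving them out lowers it by construction and decides nothing. Summed endothelial markers stood at 334, 2480 and 1915 CPM in the same order, with *Cldn5* the most abundant at a mean of 1205 CPM of the 1577 CPM of the list. *Cldn5* also counts toward the 20 marker UMIs that define the 18 droplets, and 7 of the 21 OECs of the adult fed 5% were among the 18 droplets. The 15 named lower were *Spp1*, *Lgals3*, *Ccl5*, *H2-Eb1*, *S100a10*, *Cd74*, *Mgp*, *Acta2*, *Lpl*, *Tpm2*, *Ramp1*, *Mylk*, *Ccn3*, *Gm26870* and *Trf*. Several of these were seen almost only in the aged mouse fed 0%, such as *Spp1* (2, 0 and 220 UMIs) and *Lgals3* (1, 0 and 61). So were *Cd74* (3, 1 and 124), *Ccl5* (2, 0 and 41) and *Lpl* (2, 1 and 54). They passed the filter on low counts through that mouse, so their place on this list is a description.

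Of the 37 diet calls, 32 drew more than 50% of the UMIs on their higher side from a single droplet (5 higher, 27 lower). *Mgp* stood at 1734, 13.6 and 39.9 CPM, with 75.9% of its UMIs in the mice fed 0% from 1 cell. *Acta2*, the smooth muscle actin, stood at 502, 4.53 and 13.3 CPM, with 97.7% from 1 cell. Leaving out the 2 OECs that Scrublet marked ended all 37 calls, and DESeq2 called 0 genes in either direction, with 78 and 26 genes at an unadjusted p under 0.05. Without the 18 droplets 0 genes were higher and 3 lower, but only 1 of the 6 higher and 10 of the 31 lower calls could be tested there.

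Whether age moved OECs differently from astrocytes or fibroblasts was tested as the difference of age effects over 16497 genes. The OEC side rests on 1 aged mouse with 13 OECs, so age cannot be told apart from other differences of that mouse. Against astrocytes it was called for 19 genes (0.115%), 11 higher (0.0667%) and 8 lower (0.0485%). Against fibroblasts it was called for 14 (0.0849%), 12 higher (0.0727%) and 2 lower (0.0121%). The genes with the smallest adjusted p against astrocytes were *Isg15*, *Cd74*, *Cd52*, *H2-Aa* and *Lgals3*. *Isg15*, an interferon-induced ubiquitin-like protein, stood at 101, 141 and 86.5 CPM in OECs, while astrocytes stood at 7.92, 9.20, 268 and 265 CPM in the 4 mice. The difference of age effects was -5.35 ± 0.39 (SE, log2). For *Cd74*, *Cd52*, *H2-Aa* and *Lgals3*, 99.2%, 86.2%, 100% and 96.7% of the aged OEC UMIs came from 1 droplet. *Isg15* was also called without the 18 droplets (adjusted p = 0.010), and the others of these 5 genes were not. Only 1 of the 19 genes against astrocytes and 0 of the 14 against fibroblasts were called in that setting.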

How the data were processed

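Whole brains of 4 mice were dissociated for 30 min and made into 10x Chromium 3′ libraries. The deposited values are raw counts of UMIs per gene and barcode, which the authors made with Cell Ranger 3.1.0 on GRCm38 with Ensembl 98 genes, and they are not normalised. The study's own tests of the single-cell data (Seurat FindMarkers) were run on single cells. Here UMIs were summed per mouse and class, and the sums were tested in R 4.3.3 with edgeR 4.0.16 (TMM, quasi-likelihood test, Benjamini-Hochberg adjustment, adjusted p under 0.05 and fold above 1.5). The class fits had the mouse as a block. Age and diet fits used the OEC sums of 3 mice without the other factor, since the aged mouse fed 5% inulin had no OECs, so each p rests on the spread between a pair of mice.

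The members and gene lists were chosen with earlier results of these data known. Named genes were the 25 higher and 10 lower in both class comparisons, ranked by the smaller fold with a minimum of 100 CPM on the higher side; for age and diet, up to 15 called genes in each direction with the largest fold whose groups of mice did not overlap; the 5 with the smallest adjusted p for differences of age effects; the 15 most variable within OECs; and 2 to 6 genes of a list. A few genes that this rule names are not reported here. Barcodes meeting more than 1 class rule (13) went into no comparison class. Only 6 barcodes met an oligodendrocyte rule (*Mog* and *Cldn11*), so that contrast could not be fitted. Scrublet in scanpy 1.11.5 (expected rate 0.08) marked doublets, which were kept unless stated. Coordinates came from GENCODE vM21. The fits were tested on simulated data: 54% of genes changed 4-fold and 4.5% of those changed 2-fold were recovered for age, and 47.5% and 0% for diet. The simulated sums had a fixed dispersion, and only genes above a set mean count were changed. They held no single droplets that dominate a gene, so these rates need not hold for the real sums.

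Alternatives were DESeq2 1.42.0, another normalisation, no filter on low counts, no Scrublet doublets, an upper limit of 22005 UMIs, at least 20 UMIs of *Npy* and *Frzb*, thinning each cell to 2000 UMIs, leaving out each mouse, and fitting only the compared classes. The limit of 20 microglia and endothelial marker UMIs and the comparison of OEC shares within each diet or age were added after seeing the data.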

Additional observations from a re-analysis of the deposited data

Results flagged for a closer look

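The difference of age effects between OECs and another class passed the test for the genes named here. Against astrocytes it was -5.35 (log2) for *Isg15*, 6.39 for *Cd74*, 4.28 for *Cd52*, 5.70 for *H2-Aa* and 7.13 for *Lgals3*. Against fibroblasts it was 7.93 for *Spp1*, 6.42 for *Lpl*, 5.24 for *Cd74*, 6.94 for *Lgals3* and -3.72 for *Abcb1a*. Only *Isg15* against astrocytes was also called without the 18 droplets rich in microglia and endothelial markers.

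Barcodes above the mitochondrial limit that met the gene rule stood outside all comparisons. They numbered 8 in the adult mouse fed 0% inulin, 12 in the adult fed 5%, 3 in the aged fed 0% and 0 in the aged fed 5%.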

How the results depend on the processing

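The OEC share was lower in aged mice and with 5% inulin in every setting run, and leaving out each mouse gave differences of -0.461 to -0.147 points for age and -0.436 to -0.0734 for diet. For age, 57 higher and 53 lower calls became 13 and 3 with DESeq2, 3 and 8 after thinning, and 13 and 22 without the 18 marker-rich droplets; the UMI limit gave 30 higher and 67 lower, and 6 of the 110 genes, *C1qa* and *C1qb* among them, were then called with the opposite sign. For diet, 6 higher and 31 lower calls became 0 and 0 with DESeq2, without Scrublet doublets and after thinning. Without the 18 droplets they became 0 and 3. The UMI limit gave 12 diet calls, 8 of them lower, and at least 20 *Npy* and *Frzb* UMIs gave 25, 3 of them higher. Against astrocytes, thinning left 539 higher and 942 lower, and leaving out each mouse 868 to 1343 and 1272 to 2037. Against fibroblasts, thinning left 710 and 942, and leaving out each mouse 1180 to 1626 and 1434 to 2035. *Folr1* changed sign against fibroblasts under the UMI limit (0.18). Differences of age effects against astrocytes (11 higher, 8 lower) came to 26 and 18 with DESeq2 and 58 and 94 with no filter. With only the compared classes they came to 31 and 60. After thinning they came to 12 in all, 0 of them higher, and without Scrublet doublets to 22, 13 of them lower. They came to 0 and 1 under the UMI limit and without the 18 droplets, and to 4 to 18 and 2 to 29 leaving out a mouse. Against fibroblasts (12 and 2) they came to 24 and 9, 61 and 71, and 37 and 27 in the first 3 of these settings, 0 and 0 under the UMI limit and without the 18 droplets, 19 and 8 with the stricter pair sum, 1 and 11 after thinning, and 4 to 26 and 0 to 10 leaving out a mouse. The cause was not tested. The labels give no replicate numbers. OEC shares compared within each level of the other factor differed by the same -0.304 and -0.255 points (exact paired permutation p = 0.5, the smallest for 2 pairs), and the class fits were blocked by mouse. For genes in OECs, no paired analysis was possible because only 3 mice had OECs, which leaves no residual degrees of freedom. Gene fits of age or diet with the other factor, fits leaving out a mouse with OECs for age or diet, and oligodendrocyte contrasts were not run. The 78 cells and 807429 UMIs limit what can be seen of low genes.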
